A study of Mus musculus with 6 samples.

Results

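Molecular chaperones of the cytosol and the mitochondria, with their co-chaperones and the heat shock transcription factors, were examined in AML12 cells that overexpressed Zac1. The members were chosen by gene symbol: the HSP70 and HSP110 family (Hspa genes and Hsph1), HSP90 (Hsp90aa1 and Hsp90ab1), the small heat shock proteins (Hspb genes), the chaperonins Hspd1 and Hspe1 and subunits 2 to 8 of CCT, the J-domain proteins (Dnaja, Dnajb and Dnajc genes), Bag1 to Bag6, and the heat shock factors Hsf1, Hsf2, Hsf4 and Hsf5. Hspa5, Hspa13, Dnajb9, Dnajb11 and Dnajc3, which work in the endoplasmic reticulum, were left out. This gave 82 genes of the 49585 in the count table.

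The study transfected AML12 cells, an immortalised mouse hepatocyte line made from the liver of a mouse transgenic for a human growth factor, with an overexpression construct for 1 of 2 open reading frames. The Zac1 group (3 libraries, numbered 4, 5 and 6) received that of Zac1, which is the zinc finger protein made from Plagl1, an imprinted gene. The EGFP group (3 libraries, numbered 1, 2 and 3) received that of EGFP, the green fluorescent protein that served as control. PolyA RNA of both groups was sequenced 24 h after transfection. The promoter of the constructs and the share of cells that took them up are not given in the labels. Each library may therefore average over transfected and untransfected cells. Separate cultures are not named for the 3 libraries of a group, and the spread behind each p-value may therefore be technical. A lower level in such bulk RNA can mean fewer cells with the message or less message per cell, which cannot be told apart here.

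Chaperones bind unfolded or partly folded proteins and help them to fold, to cross membranes or to be degraded. HSP70 works in a cycle of ATP binding and hydrolysis: J-domain proteins deliver substrates and start hydrolysis, and HSP110 and several BAG proteins promote the exchange of nucleotide that releases the substrate. Some members are made at all times in nearly every cell, such as Hspa8, Hsp90ab1 and the CCT chaperonin that folds actin and tubulin. Others are induced when unfolded protein releases the transcription factor Hsf1 to bind heat shock elements, arrays of inverted GAA units in promoters. Hspa1a and Hspa1b, a pair of neighbouring genes for nearly the same protein, are the classical stress-inducible HSP70 genes and the usual readout of that response.

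The libraries held 16104498 to 18302538 counted reads in the Zac1 group and 14801240 to 15145092 in the EGFP group. Plagl1, the gene whose open reading frame the Zac1 construct carries, had 106033, 135108 and 148382 reads in Zac1 libraries and 39, 79 and 67 reads in EGFP libraries, as labelled. On a principal component analysis, component 1 (48.8% of the variance) separated the groups, and component 2 (22.1%) set Zac1 library 4 (11.57) and EGFP library 1 (10.42) apart from the other 4 (-8.82 to -2.22). Of 8 hepatocyte markers, 7 were expressed highly enough to test, led by Krt8, Krt18, Apob and Hnf4a, and the summed level of the list was 4967.4 to 5384.8 CPM in Zac1 libraries and 4872.4 to 5198.9 CPM in EGFP libraries. Of the 7, Ttr alone was called: it averaged 42.5 CPM in Zac1 libraries and 67.4 CPM in EGFP libraries (adjusted p = 0.000211, edgeR). Albumin (Alb) was at 34.7 CPM in each group, and Trf had 5 reads in all. Apoa1, though tested, was low, at 1.03 CPM in Zac1 libraries and 0.939 CPM in EGFP libraries (95 reads in all). The keratins weighed most in the sum: Krt8 averaged 1889.0 CPM in Zac1 libraries and 1749.8 CPM in EGFP libraries. Krt18 averaged 1757.6 CPM in Zac1 libraries and 1581.7 CPM in EGFP libraries. The part of the hepatocyte markers in the results on chaperones was not tested. Markers of other cells of the liver were near 0: fibroblast and stellate cell markers summed to 0.374 to 0.822 CPM in Zac1 libraries and 0 to 0.0676 CPM in EGFP libraries (Dcn and Lum at 0), those of leukocytes to 1.88 to 2.56 CPM in Zac1 libraries and 2.16 to 2.48 CPM in EGFP libraries, and those of endothelial cells to 0.747 to 1.25 CPM in Zac1 libraries and 0.47 to 0.811 CPM in EGFP libraries. Of the cholangiocyte markers, Krt19, Krt7 and Sox9 were expressed (386 to 410 CPM summed over the list in Zac1 libraries, 363 to 402 CPM in EGFP libraries), and Epcam had 4 reads.

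Zac1 libraries were compared with EGFP libraries across the members, and stress-inducible members were set beside constitutive ones. Hspa1a and Hspa1b were lower in Zac1 libraries, at 0.215 and 0.328 times their level in EGFP libraries, and no other member passed the test. The study has no untransfected cells, so a fall with Zac1 cannot be told apart from a rise with EGFP. Levels are given as CPM, which relates counts to library sizes scaled by TMM, and changes as log2 fold changes of Zac1 over EGFP from the quasi-likelihood test of edgeR, with p-values adjusted over all genes tested by the Benjamini-Hochberg method and a threshold of 0.05. Of the 82 members, 67 had a mean count of at least 10 and were tested. Among these 0 were called higher and 2 lower (2.99%), beside 3.12% called higher and 0.668% called lower of all 12130 genes tested (3.78% in either direction). The median log2 fold change of the 67 was -0.02, with 24 above 0 and 43 below, and that of all genes tested was -0.002. In 11 of the 67 (16.4%) the Zac1 and EGFP libraries did not overlap in CPM, which was so for 20.6% of all genes tested. The summed level of the 82 members was 16765.4 to 16952.4 CPM in Zac1 libraries and 17269.9 to 17578.8 CPM in EGFP libraries. The sums did not overlap, here and with 3 other scalings of the libraries, and their means differed by -2.9% of the EGFP mean (-3.25% to -1.84% over the scalings). These sums are a description, and no test was made of them.

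**Figure D1:**
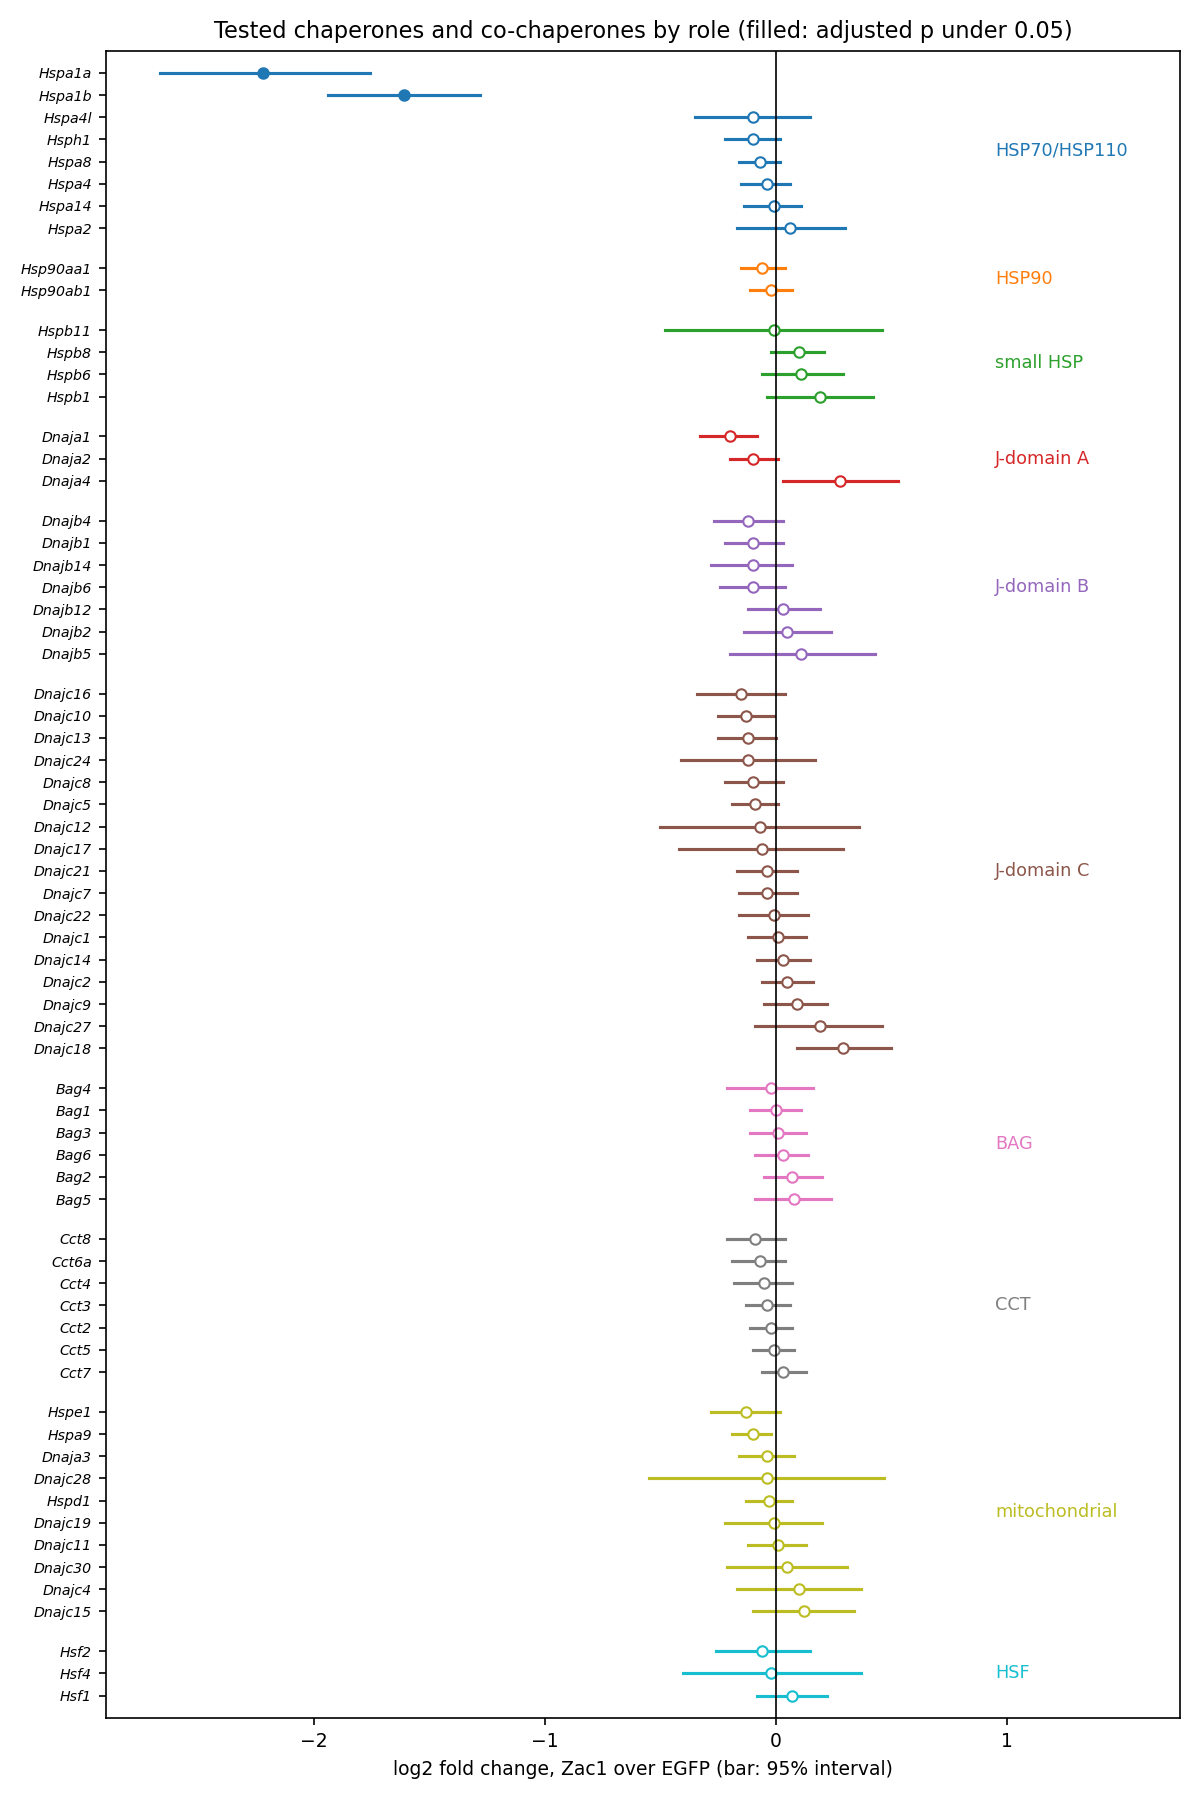
Log2 fold change of Zac1 over EGFP (horizontal axis) for the 67 tested members, grouped by role, with the 95% interval from edgeR as bars and filled points for an adjusted p under 0.05. Only Hspa1a (-2.22) and Hspa1b (-1.61) are filled, and the points of the other 65 lie between -0.20 and 0.29.

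The 65 tested members other than Hspa1a and Hspa1b were bounded tightly. Their 95% intervals all lay within 1.5-fold in either direction, from a lower limit of 0.684 (Dnajc28, a mitochondrial J-domain protein of low level) to an upper limit of 1.45 (Dnaja4). The smallest adjusted p among them was 0.0771 (Dnaja1, edgeR). Unadjusted p-values under 0.05 were found for 6 of the 65, namely Dnaja1, Dnaja4, Dnajc10, Dnajc13, Dnajc18 and Hspa9, and for 1921 of the 12130 genes tested. Without Zac1 library 4 and EGFP library 1, the pair that component 2 set apart, 7 of 67 members were called, beside 1461 of all 12188 genes tested. These were Hspa1a, Hspa1b, Dnaja1, Dnajc10 and Dnajc13 lower, and Hspb1 and Dnajc18 higher. In that fit edgeR shrank each gene's spread almost wholly to that of genes of similar level, so the smaller p-values are no firmer evidence.

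Hspa1a encodes an inducible cytosolic HSP70 and lies at chr17:34969190-34972156 on the minus strand (GRCm38, GENCODE M21 annotation), where it is a gene without introns. It had 26, 27 and 32 reads in Zac1 libraries 4, 5 and 6, against 85, 125 and 134 reads in EGFP libraries 1, 2 and 3. As CPM these were 1.62, 1.59 and 1.74 in Zac1 libraries and 5.66, 8.40 and 9.05 in EGFP libraries. The highest Zac1 library was below the lowest EGFP library, and the 3 Zac1 values lay close together while EGFP library 1 was the lowest of its group. The mean was 1.65 ± 0.0814 CPM in Zac1 libraries and 7.70 ± 1.80 CPM in EGFP libraries (SD, n = 3 each). The log2 fold change was -2.22 (SE 0.21) with an adjusted p of 3.69e-05 by edgeR's quasi-likelihood test, and its 95% interval ran from -2.67 to -1.76. Without Zac1 library 4 and EGFP library 1 it was -2.38 (SE 0.22).

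Hspa1b, its neighbour at chr17:34956436-34959238 on the same strand, had 71, 59 and 85 reads in Zac1 libraries and 163, 214 and 193 reads in EGFP libraries. In CPM it stood at 4.42, 3.47 and 4.62 in Zac1 libraries and at 10.9, 14.4 and 13.0 in EGFP libraries. Again the groups did not overlap and EGFP library 1 was the lowest of the controls. The mean was 4.17 ± 0.619 CPM in Zac1 libraries and 12.8 ± 1.77 CPM in EGFP libraries (SD, n = 3 each), a log2 fold change of -1.61 (SE 0.15, 95% interval -1.94 to -1.28, adjusted p = 3.69e-05 by edgeR). Without Zac1 library 4 and EGFP library 1 it was -1.75 (SE 0.16).

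**Figure D2:**
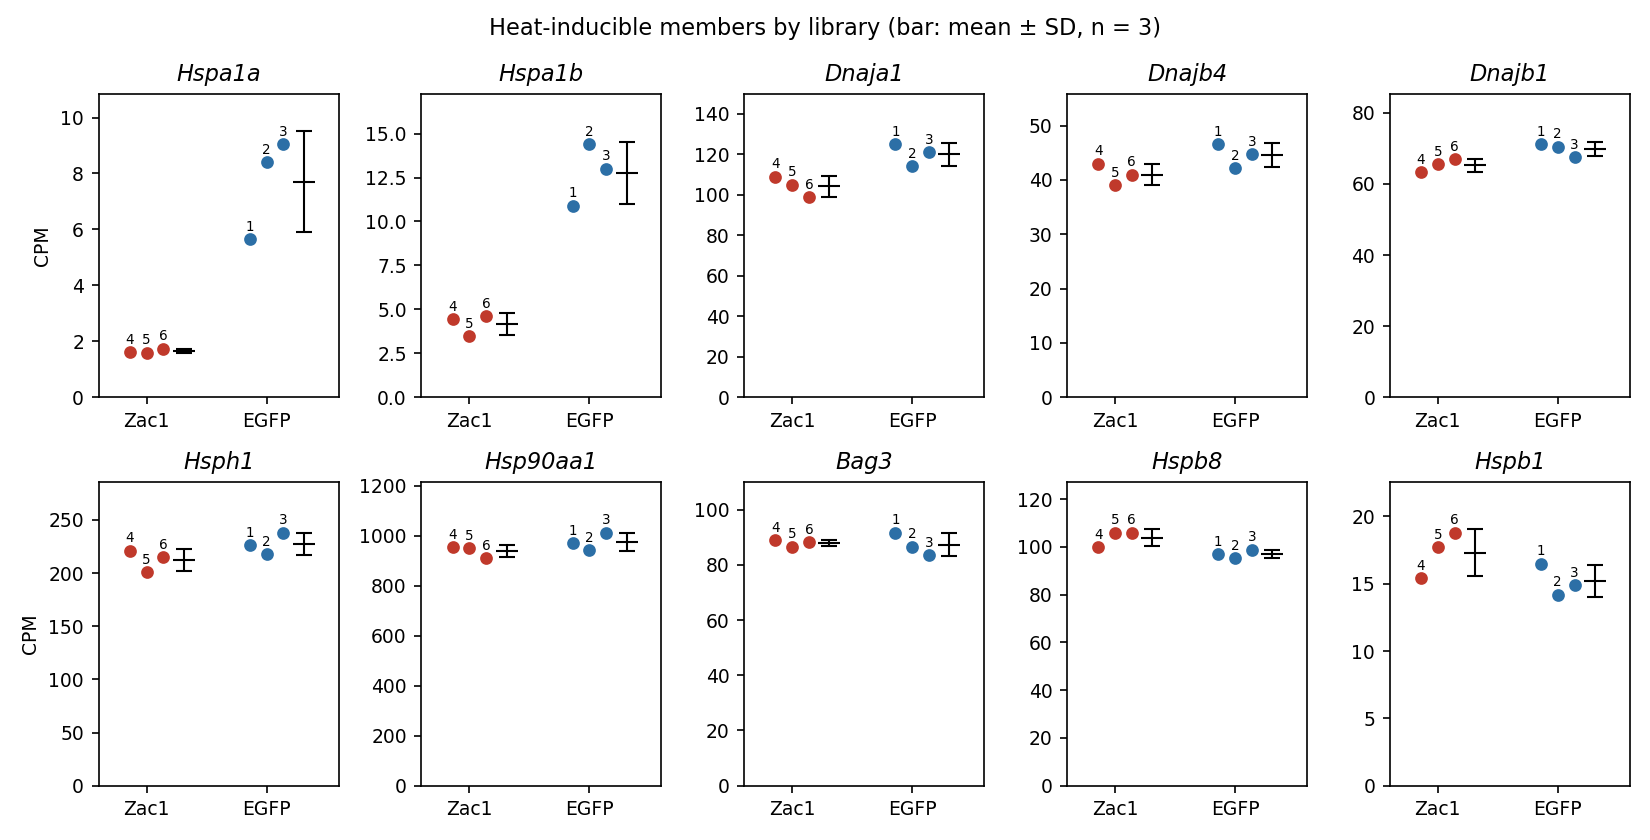
CPM (vertical axes, each from 0) of the 10 heat-inducible members in every library, Zac1 in red and EGFP in blue, with the library number above each point and the mean ± SD of 3 libraries beside the points. Hspa1a lies between 1.59 and 1.74 CPM in Zac1 libraries and between 5.66 and 9.05 CPM in EGFP libraries, while the other panels, apart from Hspa1b, show groups of similar height.

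These 2 genes are near-identical copies, so the split of reads between them is uncertain. In the GENCODE M21 transcripts their coding sequences match at 1915 of 1923 aligned bases (99.6%) and their 5′ untranslated regions at 228 of 231, while only 407 of 594 aligned bases match in the 3′ untranslated regions (68.5%). Of all 50-base windows of the transcript, 58.8% of those of Hspa1a occur also in Hspa1b and 62.3% of those of Hspa1b in Hspa1a. None of the Hspa8 windows occurs in Hspa1a, whose coding sequence is 74.7% identical to that of Hspa8. How reads that fit both copies were counted is not given in the sources used here. The sum of both copies does not depend on that split between them: it was 6.04, 5.05 and 6.36 CPM in Zac1 libraries and 16.5, 22.8 and 22.1 CPM in EGFP libraries, with no overlap. Fitted as 1 gene in the whole table, the sum differed by -1.81 on the log2 scale (SE 0.14, edgeR adjusted p = 6.68e-06), which leaves Zac1 libraries at 28.5% of the EGFP level. Hspa1a made up 26.8%, 31.4% and 27.4% of the reads of both in Zac1 libraries and 34.3%, 36.9% and 41% in EGFP libraries. This share did not overlap between the groups (28.5% ± 2.50 in Zac1 libraries and 37.4% ± 3.38 in EGFP libraries, SD, n = 3 each), but an exact two-sided permutation test gave p = 0.1, the smallest that 3 against 3 libraries allow, and the share was looked at after its values had been seen.

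The promoters of the pair are printed here because they carry the heat shock element and show how little the copies differ. The 300 bases, 250 before and 50 from the annotated transcription start (RefSeq, GRCm38.p6), are written 5′ to 3′ along the gene, with each match to GAANNTTC or TTCNNGAA, the inverted pairs of heat shock units, in capitals.
Hspa1a chr17:34972107-34972406 (minus strand): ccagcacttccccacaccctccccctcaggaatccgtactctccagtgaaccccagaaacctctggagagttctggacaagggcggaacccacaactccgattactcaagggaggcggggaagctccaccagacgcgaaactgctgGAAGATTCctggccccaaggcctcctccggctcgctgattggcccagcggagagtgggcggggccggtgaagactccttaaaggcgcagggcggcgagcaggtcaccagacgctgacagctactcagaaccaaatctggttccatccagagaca
Hspa1b chr17:34959189-34959488 (minus strand): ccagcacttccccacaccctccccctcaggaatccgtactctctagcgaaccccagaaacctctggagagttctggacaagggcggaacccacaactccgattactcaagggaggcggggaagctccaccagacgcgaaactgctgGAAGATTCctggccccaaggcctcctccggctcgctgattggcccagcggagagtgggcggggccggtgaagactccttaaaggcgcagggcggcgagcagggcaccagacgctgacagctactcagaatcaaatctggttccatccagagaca
They match at 296 of 300 positions (98.7%), and differ by C44T, T47C, T249G and C276T, counted from the 5′ end of the window with the Hspa1a base given before the position and the Hspa1b base after it. Both hold a single match, GAAGATTC, which begins 104 bases before the start. The genes are 9951 bases apart, and Hspa1l, a related gene that in mammals is expressed mainly in the testis, starts 546 bases from Hspa1a on the other strand. Hspa1l had 3 reads in all Zac1 libraries together and 0 in EGFP libraries.

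Inducible and constitutive members were then compared as lists of 10 and 18 genes. The inducible list held Hspa1a, Hspa1b, Hsph1, Hsp90aa1, Dnajb1, Dnaja1, Dnajb4, Hspb1, Hspb8 and Bag3, all known to rise on heat shock. All 10 were tested: 2 were called lower and 0 higher, 7 log2 fold changes were below 0, and the median was -0.10. The constitutive list (Hspa8, Hspa4, Hspa14, Hsp90ab1, Dnaja2, Dnajb2, Dnajb6, Dnajc7, Bag1, Bag5, Bag6 and 7 CCT subunits) was also tested whole. In it 0 were called lower and 0 higher, and 14 log2 fold changes were below 0. Their median was -0.03, with a range of -0.10 to 0.08 over the list. The medians differed by -0.07, and without Hspa1a and Hspa1b the median of the inducible list was -0.08 (8 genes, 0 called, range -0.20 to 0.19). The 95% intervals of these 8 reached from 0.795-fold to 1.33-fold, and those of the 18 constitutive genes from 0.846-fold to 1.18-fold. Groups did not overlap in 5 of the 10 inducible and 3 of the 18 constitutive members, beside the 20.6% of all genes tested. The inducible list summed to 1550.6 to 1601.5 CPM in Zac1 libraries and 1607.8 to 1704.2 CPM in EGFP libraries, without overlap, but overlapped once Hspa1a and Hspa1b were left out (1544.3 to 1595.4 CPM in Zac1 libraries and 1585.0 to 1682.1 CPM in EGFP libraries). The constitutive list summed to 10455.0 to 10564.5 CPM in Zac1 libraries and 10656.9 to 10847.1 CPM in EGFP libraries, without overlap on this scale and with overlap after upper-quartile scaling.

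Among the other inducible members, Dnaja1, a J-domain protein that works with cytosolic HSP70, came nearest to the threshold. It had 109, 105 and 98.7 CPM in Zac1 libraries and 125, 114 and 121 CPM in EGFP libraries. The groups did not overlap, and the log2 fold change was -0.20 (SE 0.06, adjusted p = 0.0771, edgeR). Without Zac1 library 4 it was -0.24 and passed (adjusted p = 0.0198, edgeR). With offsets for GC content it was -0.13 and did not (adjusted p = 0.108, edgeR). It did not pass either without Zac1 library 5, Zac1 library 6 or EGFP library 3 (adjusted p = 0.278, 0.325 and 0.263, edgeR). Dnaja1 overlaps Smu1 on the other strand by 608 bases, and whether reads were counted by strand is not stated.

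Dnajb1, an HSP40 that serves HSP70 in the cytosol, had 63.3, 65.6 and 66.9 CPM in Zac1 libraries and 71.2, 70.5 and 67.5 CPM in EGFP libraries, without overlap (log2 fold change -0.10, adjusted p = 0.46, edgeR). Its relative Dnajb4 had 43.0, 39.0 and 41 CPM in Zac1 libraries and 46.6, 42.2 and 44.8 CPM in EGFP libraries, where the highest Zac1 value exceeded the lowest EGFP value (-0.12, adjusted p = 0.436, edgeR). For Dnajb1 the lowest EGFP library lay just above the highest Zac1 library. Hsph1, the inducible HSP110, had 221, 201 and 215 CPM in Zac1 libraries and 226, 218 and 238 CPM in EGFP libraries (-0.10, adjusted p = 0.406, edgeR). Hsp90aa1, the inducible HSP90, had 954, 950 and 910 CPM in Zac1 libraries and 970, 944 and 1013.3 CPM in EGFP libraries (-0.06, adjusted p = 0.588, edgeR). In both genes the libraries of the groups interleaved.

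Hspb1 (HSP27), Hspb8 and Bag3 had log2 fold changes above 0. Hspb1, an oligomeric holdase, had 15.4, 17.7 and 18.8 CPM in Zac1 libraries and 16.5, 14.2 and 14.9 CPM in EGFP libraries (0.19, SE 0.11, adjusted p = 0.411, edgeR). Zac1 library 4 lay within the EGFP range and the other Zac1 libraries above it. Its log2 fold change was 0.07 with offsets for GC content and 0.12 without Zac1 library 6. Without Zac1 library 4 and EGFP library 1 it was 0.34 and passed (adjusted p = 0.0356, edgeR). That fit shrank each gene's spread almost wholly to that of genes of similar level, so the pass is no firmer evidence. Hspb8 and its partner Bag3 form a complex that takes damaged proteins to autophagy. Hspb8 had 99.8, 106 and 106 CPM in Zac1 libraries and 97.0, 95.4 and 98.9 CPM in EGFP libraries, just without overlap (0.10, adjusted p = 0.407, edgeR). Bag3 had 89.0, 86.6 and 88.3 CPM in Zac1 libraries, inside the EGFP range of 91.7, 86.6 and 83.6 CPM (0.01, adjusted p = 0.95, edgeR).

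Inducible genes were also set against a constitutive partner within the same library, in 4 pairs, as a ratio that does not depend on how libraries are scaled. Reads of Hspa1a plus Hspa1b were 0.407%, 0.326% and 0.404% of those of Hspa8 in Zac1 libraries and 1.02%, 1.40% and 1.37% in EGFP libraries. The groups did not overlap, and the mean log2 ratio was -8.05 ± 0.18 in Zac1 libraries and -6.32 ± 0.26 in EGFP libraries (SD, n = 3 each), a difference of -1.73. An exact two-sided permutation test gave p = 0.1, the smallest possible here, and 0.4 after Benjamini-Hochberg adjustment over the 4 pairs compared. Hsp90aa1 was 28.2%, 26.5% and 25.3% of Hsp90ab1 in Zac1 libraries and 27.5%, 25.9% and 28.6% in EGFP libraries (log2 difference -0.04, exact permutation p = 0.6, adjusted 0.8). Hsph1 was 27.7%, 27.0% and 29.8% of Hspa4 in Zac1 libraries and 28.3%, 28.9% and 30.8% in EGFP libraries (-0.06, exact permutation p = 0.4, adjusted 0.8). Dnajb1 was 21.6%, 23.0% and 24.1% of Dnaja2 in Zac1 libraries and 22.3%, 23.6% and 22.6% in EGFP libraries (0.00, exact permutation p = 1.0, adjusted 1.0). In the last 3 pairs the libraries of the groups interleaved.

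**Figure D3:**
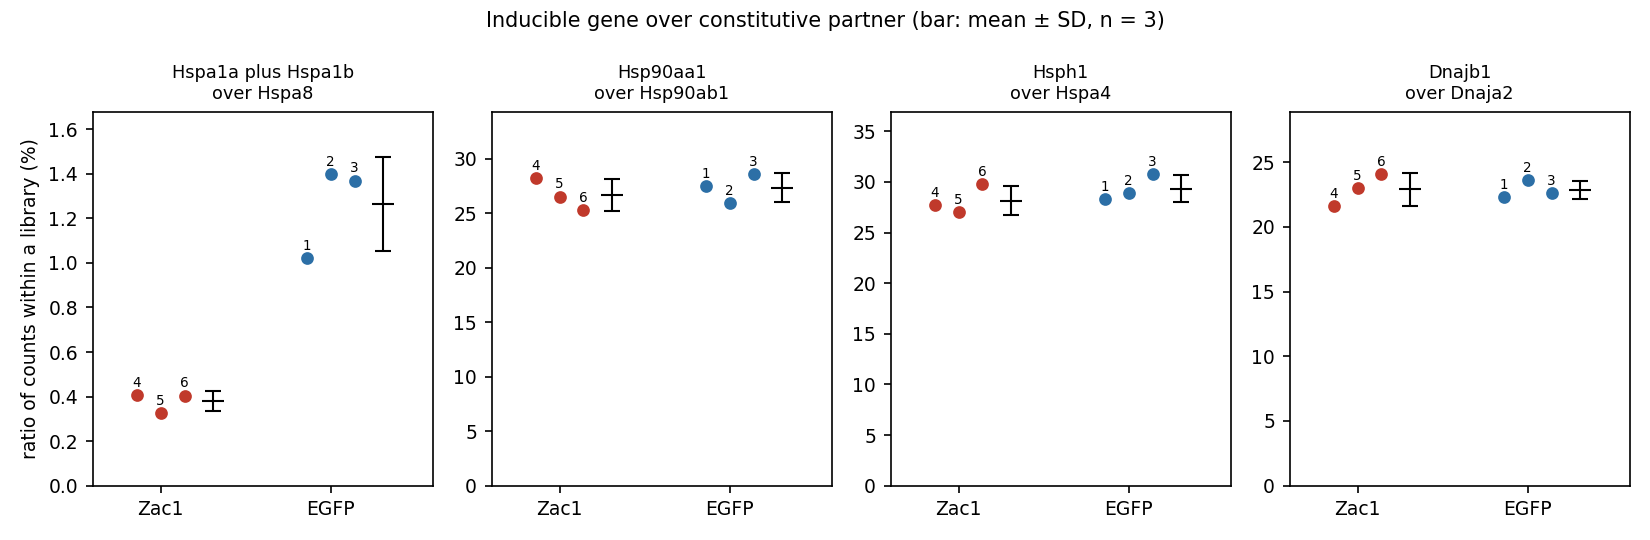
Reads of an inducible gene as a percentage of those of its constitutive partner in the same library (vertical axes, each from 0), Zac1 in red and EGFP in blue, with the library number above each point and the mean ± SD of 3 libraries beside the points. The Hspa1a plus Hspa1b ratio lies between 0.326% and 0.407% in Zac1 libraries and between 1.02% and 1.40% in EGFP libraries, and the groups overlap in the other 3 panels.

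By these counts, the inducible HSP70 genes were a small part of the HSP70 message. Per kilobase of exon, Hspa1a had 0.556 CPM in Zac1 libraries and 2.60 CPM in EGFP libraries, and Hspa1b had 1.49 CPM in Zac1 libraries and 4.55 CPM in EGFP libraries. On the same scale the constitutive Hspa8 had 359 CPM per kilobase in Zac1 libraries and 378 in EGFP libraries. Hsp90ab1 had the highest level per kilobase of the 67 tested members, 1175.4 CPM in Zac1 libraries and 1190.9 CPM in EGFP libraries, followed by Hspd1 with 437 CPM in Zac1 libraries and 445 CPM in EGFP libraries. Dnajc28 had the lowest, 0.551 CPM per kilobase in Zac1 libraries and 0.565 CPM in EGFP libraries, and Hspa1a stood next to it in Zac1 libraries. If reads that fit both Hspa1 copies were left out of the counts, their levels and their ratio to Hspa8 are too low. Hspa1a also overlaps Gm20481, which had a mean count of 0, by 2225 bases on the other strand. Whether reads were counted by strand is not stated, and reads of that stretch may have been given to neither gene.

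**Figure D4:**
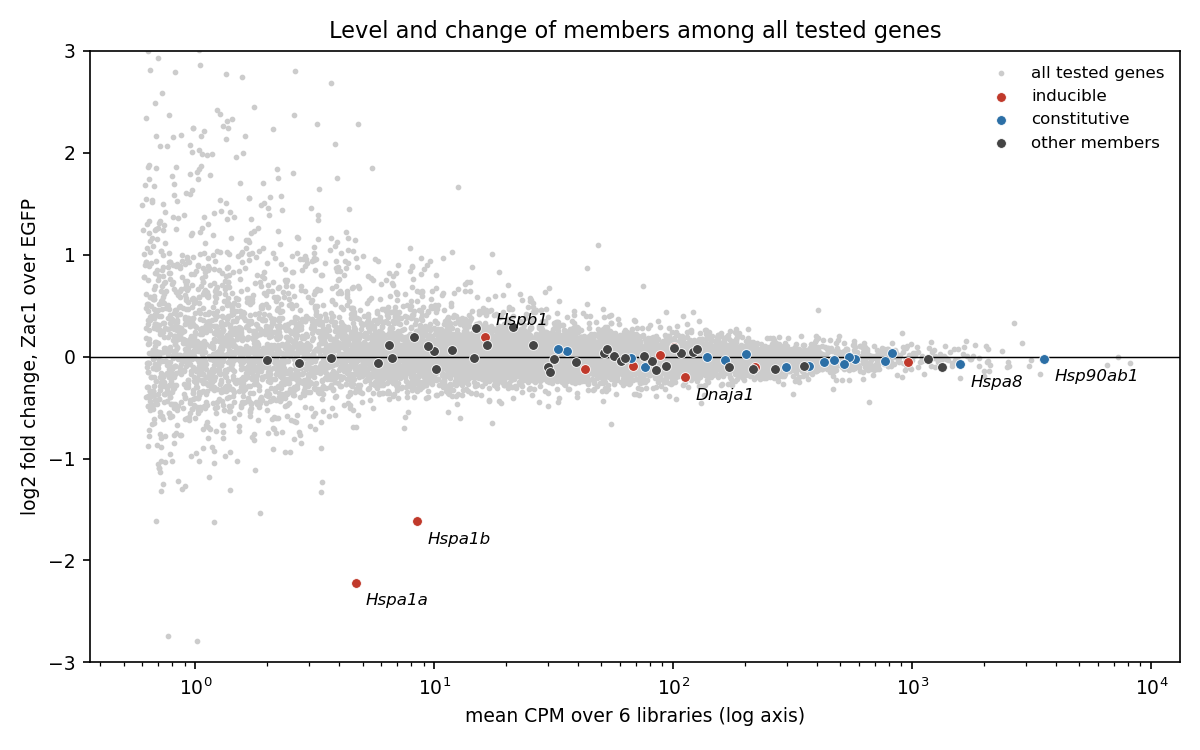
Mean CPM over the 6 libraries (horizontal log axis) against the log2 fold change of Zac1 over EGFP (vertical axis) for all 12130 genes tested (grey) and for inducible, constitutive and other members (coloured). Hspa1a and Hspa1b are the members at -2.22 and -1.61, and the other members lie near 0. The 49 genes beyond 3 on the log2 scale, none of them a member, are not drawn.

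In the HSP70 and HSP110 family 8 of 11 genes outside the mitochondria were tested, and Hspa1a and Hspa1b were the 2 called. Hspa8, the constitutive HSC70, had 1493.9, 1560.9 and 1583.7 CPM in Zac1 libraries and 1624.1, 1629.3 and 1617.7 CPM in EGFP libraries. The groups did not overlap, with a log2 fold change of -0.07 (adjusted p = 0.448, edgeR). Hspa4, the constitutive HSP110, had 799, 743 and 721 CPM in Zac1 libraries and 800, 756 and 773 CPM in EGFP libraries (-0.04, adjusted p = 0.74, edgeR). Hspa4l, a further HSP110, had 189, 156 and 151 CPM in Zac1 libraries and 221, 152 and 159 CPM in EGFP libraries (-0.10, adjusted p = 0.732, edgeR). Zac1 library 4 and EGFP library 1, the pair that principal component 2 set apart, were the highest of their groups for Hspa4 and Hspa4l. Hspa4l was picked after its values were seen. Of the 67 tested members, Zac1 library 4 was the highest of its group in 36 and the lowest in 23. EGFP library 1 was the highest of its group in 30 and the lowest in 20. Hspa14, which assists folding at the ribosome, and Hspa2, best known from sperm development, had log2 fold changes of -0.01 and 0.06.

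Of the HSP90 genes, Hsp90ab1 had 3386.4, 3588.5 and 3600.0 CPM in Zac1 libraries and 3530.4, 3639.0 and 3545.0 CPM in EGFP libraries (-0.02, adjusted p = 0.872, edgeR). Its interval, with that of Hsp90aa1, lay between 0.899-fold and 1.05-fold. These were the narrowest bounds of the role groups. Of 8 small heat shock proteins 4 were tested, none was called, and Hspb1, Hspb6 and Hspb8 were above 0 and Hspb11, a subunit of the intraflagellar transport machinery, was at -0.01.

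J-domain proteins made up the largest group. All 3 class A genes of the cytosol, 7 of 11 class B and 17 of 19 class C genes outside the mitochondria were tested, and 0 were called. Log2 fold changes ran from -0.20 to 0.28 in class A, from -0.12 to 0.11 in class B and from -0.15 to 0.29 in class C. Dnaja2, a constitutive co-chaperone of Hspa8, had 294, 286 and 277 CPM in Zac1 libraries and 319, 299 and 299 CPM in EGFP libraries, without overlap (-0.10, adjusted p = 0.358, edgeR). Dnaja4 had 18.7, 14.5 and 15.9 CPM in Zac1 libraries and 14.9, 12.5 and 12.9 CPM in EGFP libraries (0.28, SE 0.12, adjusted p = 0.24, edgeR), and overlaps Wdr61 on the other strand by 1581 bases. In Dnaja4 the groups overlapped, since Zac1 library 5 was below EGFP library 1. Dnajb6, which keeps aggregation-prone proteins soluble, had 80.3, 69.2 and 70.8 CPM in Zac1 libraries and 79.7, 75.3 and 80.9 CPM in EGFP libraries (-0.10, adjusted p = 0.51, edgeR).

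In class C, Dnajc18 had the smallest p. It had 24.1, 23.4 and 22.8 CPM in Zac1 libraries, all above 20.2, 20.4 and 16.6 CPM in EGFP libraries. The log2 fold change was 0.29 (SE 0.09, adjusted p = 0.117, edgeR), and EGFP library 3 was the lowest. Dnajc5, the cysteine-string protein of secretory vesicles, had 340, 347 and 336 CPM in Zac1 libraries and 371, 363 and 354 CPM in EGFP libraries, also without overlap (-0.09, adjusted p = 0.366, edgeR). Dnajc10, a J-domain reductase that the rule keeps although it works in the endoplasmic reticulum, had a log2 fold change of -0.13 (adjusted p = 0.29, edgeR). The rule goes by symbol, so other members that it keeps may work there as well. Dnajc13, which acts on clathrin at endosomes, stood at -0.12 (adjusted p = 0.307, edgeR). Both were named for an unadjusted p under 0.05, after their values were seen. For Dnajc13 Zac1 library 4 stood at 223 CPM, within the EGFP range of 222 to 228 CPM, and the other Zac1 libraries at 205 and 192 CPM.

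All 6 genes of the BAG group, several of whose products promote nucleotide exchange on HSP70, were tested and lay between -0.02 and 0.08. Bag6, which hands membrane proteins to their targeting route, had 193, 209 and 209 CPM in Zac1 libraries and 196, 210 and 195 CPM in EGFP libraries (0.03, adjusted p = 0.869, edgeR). Bag2, a regulator of the ubiquitin ligase CHIP, had 134, 123 and 130 CPM in Zac1 libraries and 129, 117 and 121 CPM in EGFP libraries (0.07, adjusted p = 0.576, edgeR). The groups overlapped in each of the 6 genes.

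Of the 8 CCT genes, which encode subunits of the cytosolic chaperonin ring, 7 were tested, and their log2 fold changes were within -0.09 and 0.03. Cct7 had 809, 843 and 840 CPM in Zac1 libraries and 832, 821 and 780 CPM in EGFP libraries (0.03, adjusted p = 0.772, edgeR). Cct8 had 383, 356 and 340 CPM in Zac1 libraries and 405, 360 and 382 CPM in EGFP libraries (-0.09, adjusted p = 0.501, edgeR). The intervals of all 7 lay between 0.863-fold and 1.09-fold. Cct3, named for this after its values were seen, alone did not overlap between the groups, with 471, 460 and 459 CPM in Zac1 libraries and 474, 479 and 473 CPM in EGFP libraries (-0.04, adjusted p = 0.74, edgeR).

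The mitochondrial members were Hspa9, the HSP70 of the matrix that also drives protein import, the chaperonin Hspd1 with its lid Hspe1, and the J-domain proteins Dnaja3, Dnajc4, Dnajc11, Dnajc15, Dnajc19, Dnajc28 and Dnajc30. All 10 were tested and 0 were called. Hspa9 had 1279.5, 1286.8 and 1283.9 CPM in Zac1 libraries and 1373.3, 1382.0 and 1383.0 CPM in EGFP libraries. The libraries of each group were within 10 CPM of each other and the groups did not overlap. The log2 fold change of Hspa9 was -0.10 (SE 0.04, adjusted p = 0.206, edgeR, a test that draws the error of a gene from other genes as well as from its own libraries). Hspd1 had 1202.9, 1149.2 and 1109.3 CPM in Zac1 libraries and 1210.5, 1155.2 and 1162.9 CPM in EGFP libraries (-0.03, adjusted p = 0.822, edgeR). Hspe1 had 86.5, 81.9 and 73.9 CPM in Zac1 libraries and 89.0, 82.6 and 93.2 CPM in EGFP libraries (-0.13, adjusted p = 0.389, edgeR). Both partners overlapped between the groups. The genes of this pair share a bidirectional promoter and overlap by 112 bases on opposite strands.

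Hsf1, the transcription factor that induces the heat shock genes, had 49.5, 55.9 and 56.7 CPM in Zac1 libraries and 50.2, 50 and 53.8 CPM in EGFP libraries (0.07, SE 0.07, adjusted p = 0.659, edgeR). The interval of its fold change ran from 0.949 to 1.17. Hsf2 and Hsf4 had log2 fold changes of -0.06 and -0.02. These are levels of message, and the activity of Hsf1, which is set by its binding partners and its modification, was not measured.

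The 15 members below the count minimum had at most 35 reads over the 6 libraries. Hspb3, Hspb9 and Dnajb3 had 0 in every library. Hspb7, a small heat shock protein of heart and muscle, had 4, 11 and 10 reads in Zac1 libraries and 1, 0 and 0 reads in EGFP libraries. The ratio of its summed reads, scaled to library size, was 21.7 with an exact 95% counting interval of 3.56 to 892, and the gene was called when no count minimum was set. Hspa12a and Hspb2 each had 14 reads in Zac1 libraries and 9 reads in EGFP libraries. Hsf5 had 18 reads in Zac1 libraries and 17 in EGFP libraries, and Cct6b, the testis form of a CCT subunit, had 7 reads in Zac1 libraries and 13 in EGFP libraries. Each of the other 7 (Hspa1l, Hspa12b, Dnajb7, Dnajb8, Dnajb13, Dnajc6 and Dnajc25) had 1 to 3 reads over the Zac1 libraries and 0 in EGFP libraries, too few to compare.

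Partners of the chaperones that the symbol rule does not reach were read from the same fit. Of 35 listed genes, among them Stip1, Ahsa1, Fkbp4, Stub1, the prefoldin subunits and the mitochondrial Trap1, all were tested and 0 were called (median 0.00, 18 above 0 and 17 below, 2 with an unadjusted p under 0.05). The smallest p-values belonged to Grpel2, a nucleotide exchange factor of Hspa9, and Sugt1, an HSP90 co-chaperone. Grpel2 had 39.2, 41.9 and 37.9 CPM in Zac1 libraries and 46.7, 43.4 and 47.2 CPM in EGFP libraries (-0.21, adjusted p = 0.139, edgeR). Sugt1 had a log2 fold change of -0.13 (adjusted p = 0.315, edgeR).

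Of the 5 genes of the endoplasmic reticulum that the rule left out, 2 were called (40%), both lower. Of all genes tested, 3.78% were called in either direction and 0.668% lower. The groups did not overlap in 3 of the 5 (60%), beside 20.6% of all genes tested. Dnajb9 had 44.0, 45.5 and 39.8 CPM in Zac1 libraries and 59.6, 53.3 and 61.8 CPM in EGFP libraries (-0.43, SE 0.08, adjusted p = 0.00404, edgeR). Hspa5 (BiP), the HSP70 of that compartment, had 3206.1, 3302.2 and 3182.3 CPM in Zac1 libraries and 3476.1, 3703.6 and 3729.3 CPM in EGFP libraries (-0.17, SE 0.04, adjusted p = 0.0381, edgeR). Both were lower in Zac1 libraries without overlap between the groups, by less than either Hspa1 gene. Dnajc3, Hspa13 and Dnajb11 were not called (-0.12, -0.14 and -0.04, adjusted p = 0.199, 0.466 and 0.782, edgeR). Whether the change of Hspa1a or Hspa1b differs from that of Hspa5 or Dnajb9 was not tested.

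Heat shock elements in the promoters were counted as a description of what the members share. RefSeq promoters were matched by symbol for 66 of the 82 members. The pair GAANNTTC was found in 15 of the 66 (22.7%), a gene counting once if any of its promoters held it. Among all 32851 promoters of that length, each counted by itself, 7.86% held it. It was in 7 of 9 inducible members with a promoter (77.8%; Bag3, Dnaja1, Hspa1a, Hspa1b, Hspb1, Hspb8 and Hsph1) and in 2 of 15 constitutive ones (13.3%; Cct2 and Dnajb6). The pair TTCNNGAA was found in 9 of the 66 (13.6%) and in 8.52% of all promoters, in 2 of 9 inducible members (22.2%) and in 3 of 15 constitutive ones (20%). The 66 genes have 86 promoters, so a percentage of genes can run higher than a percentage of promoters. Each motif reads the same on both strands. Elements of 3 units, in which both pairs share a unit, stood in Dnajb6, Hspd1, Hspe1 and Hsph1, and in 0.603% of all promoters. The windows of Hsph1 and Hspb1 are printed as examples of inducible members that hold elements and did not pass the test.
Hsph1 chr5:149636287-149636586 (minus strand): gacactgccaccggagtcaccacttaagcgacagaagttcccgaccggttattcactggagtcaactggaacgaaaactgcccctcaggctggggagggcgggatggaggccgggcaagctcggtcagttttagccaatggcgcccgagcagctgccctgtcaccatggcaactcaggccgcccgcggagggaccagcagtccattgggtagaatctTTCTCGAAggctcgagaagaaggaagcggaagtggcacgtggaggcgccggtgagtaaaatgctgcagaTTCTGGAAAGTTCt
Hspb1 chr5:135887669-135887968 (plus strand): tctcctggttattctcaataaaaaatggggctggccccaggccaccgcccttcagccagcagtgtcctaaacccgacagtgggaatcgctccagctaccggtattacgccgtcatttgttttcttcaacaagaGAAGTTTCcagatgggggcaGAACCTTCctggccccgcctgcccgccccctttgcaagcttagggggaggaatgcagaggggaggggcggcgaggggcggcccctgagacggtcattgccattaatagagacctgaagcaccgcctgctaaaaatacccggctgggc
Hsph1 holds TTCTCGAA before the start and an element of 3 units that begins 37 bases after it. Hspb1 holds GAAGTTTC and GAACCTTC, which begin 117 and 97 bases before the start. Of the 7 inducible members with GAANNTTC, Hspa1a and Hspa1b were called lower and the other 5 were not called. GGGGCCCC, a GC-rich motif bound by Zac1, was found in 0 of the 66 members and in 1.08% of all promoters. A match is no evidence of binding, and 0 matches says only that these letters are not in this window.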

How the data were processed

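PolyA RNA-seq of 6 AML12 libraries was analysed, 3 transfected with Zac1 and 3 with EGFP. The authors deposited 1 table of gene-level read counts with a column per library. FastQC, STAR, HTSeq and DESeq2 were used per the submitters' processing notes, without versions. The genome build, the handling of reads that fit several genes and the use of strand in counting are not stated, while a directional kit was used per the labels' protocols. The deposited table is called normalized, but unscaled counts fit its values better: they are whole numbers, totals differ between libraries (14801240 to 18302538), and 0 of the whole numbers from 1 to 40 are missing in any library.

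Symbols and coordinates came from GENCODE M21 (GRCm38) by Ensembl ID (49326 of 49585 IDs), promoters from RefSeq (GRCm38.p6). The 12130 genes that averaged 10 or more counts per library were fitted in edgeR 4.0.16 (R 4.3.3) with TMM factors, glmQLFit and glmQLFTest, two-sided, Zac1 minus EGFP, Benjamini-Hochberg adjusted, threshold 0.05. Fitted fold changes carry a prior count of 0.125. The procedure was tested on counts simulated from its own fitted spread, without any difference shared by libraries of both groups. That checks the procedure and not the calls. Ratios within a library used log2 of counts plus 0.5 and exact permutation tests in SciPy 1.17.1. Intervals of read ratios are exact and cover counting error only. Replicate libraries differed by more than sampling noise (chi-square per degree of freedom 2.29 to 8.83), so none was merged.

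Alternatives were other scalings, other count minimums, DESeq2 1.42.0, limma 3.58.1, offsets for GC content, the summed Hspa1 copies and each library left out. The members and gene lists were chosen with earlier results of these data known. Named were the members past the test, the inducible list, 4 constitutive partners, in each role group the tested genes of highest CPM and of smallest p and the untested gene with most reads, and, among genes outside the rule, those past the test or else the 2 of smallest p. Others are marked where they appear.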

Additional observations from a re-analysis of the deposited data

How the results depend on the processing

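Hspa1a (-2.39 to -1.69) and Hspa1b (-1.76 to -1.41) stayed past the threshold in each of the 15 alternatives that keep them apart, with adjusted p up to 0.00109 and 0.0011, and their sum passed in the fit made of it (-1.81). The number of genes called, 459, was 979 with no count minimum, 241 with the minimum raised to 50, 1297 with limma and quality weights, and 1461 without EGFP 1 and Zac1 4. It ran from 206 to 963 when each library was left out in turn (963 without Zac1 4, 206 without Zac1 5, 221 without Zac1 6, 236 without EGFP 3). Higher genes were 82.4% of calls, against 61.4% with quality weights, 60.6% without Zac1 4 and 58.4% without EGFP 1 and Zac1 4, and against 90.8% without Zac1 5, 90.7% without EGFP 3 and 88.7% without Zac1 6. The number of members called, 2, was 4 of 79 tested with no count minimum (Hspb7 higher and Dnaja1 lower added). With quality weights it was 6 of 67 (Dnajc18 higher and Dnaja1, Dnajc13 and Hsph1 lower added). It was 1 with the copies summed and 7 of 67 without EGFP 1 and Zac1 4. Leaving out each library gave 2 to 4, with Dnaja1 and Dnajc13 added without Zac1 4. All genes tested numbered 21764 with no count minimum, 12130 with quality weights and 12188 without EGFP 1 and Zac1 4. In the fits with no count minimum and without EGFP 1 and Zac1 4, edgeR shrank each gene's spread almost wholly. It was drawn to that of genes of similar level, so smaller p-values there are no firmer evidence. The difference between inducible and constitutive medians stayed between -0.10 and -0.04. Of 368 refits of 23 named members, 355 kept direction and side of the threshold, 8 newly passed it and 5 changed sign, all of uncalled values near 0: with GC offsets Bag3 was -0.05 and Bag6 -0.07, Bag3 ran from -0.02 (without EGFP 3) to 0.05 over the left-out libraries, and Hsp90ab1 from -0.03 to 0.01, with 0.01 also without EGFP 1 and Zac1 4. The 368 refits include the fit with summed copies, which leaves the other members nearly unchanged. They leave out members named for other reasons, such as Dnajc10 and Dnajc13. The log2 difference in the Dnajb1 to Dnaja2 ratio ran from -0.04 to 0.04 over the left-out libraries. The ratio of both Hspa1 copies to Hspa8 was -1.93 without EGFP 1 and Zac1 4, an omission added for the ratios after seeing the data. The causes of these shifts were not tested. No paired analysis was possible because the groups share no replicate numbers. The other scalings of the summed levels were also added after seeing the data. The 15 untested members had at most 35 reads each, and 20 members overlap another expressed gene, where reads may be shared.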
